A study of Danio rerio with 12 samples.

Results

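The genes described here are 7 that zebrafish cells use to fold proteins in the endoplasmic reticulum or to remove reactive oxygen: hspa5, hsp90b1, pdia4, calr, prdx1, sod1 and sod2. They were chosen by gene symbol from the 8793 genes that the array annotation names by 1 symbol, with earlier results of these data known. On the Affymetrix zebrafish array, 10 of the 15502 non-control probe sets carry one of those symbols. All 10 were among the 9301 probe sets kept for testing. Each of hspa5, hsp90b1, pdia4, sod1 and sod2 had 1 probe set, calr had 2 and prdx1 had 3.

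RNA came from whole eyes, with lens, vitreous and the anterior and posterior segments included, of wild-type adult male zebrafish. In ONX eyes the left optic nerve had been crushed with forceps, and in SHAM eyes the right eye of the same fish had been pulled out of the orbit and put back with its nerve intact. Eyes were taken 4, 12 or 21 days after surgery and combined into pools of 5, with 2 ONX pools and 2 SHAM pools a day, 12 arrays in all. A whole-eye pool mixes many cell types, so that fewer cells of a type and less RNA per cell cannot be told apart.

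Proteins that enter the secretory pathway fold inside the endoplasmic reticulum (ER), helped by chaperones and by enzymes that form and rearrange disulphide bonds. When unfolded proteins build up there, sensors in the ER membrane start the unfolded protein response, which raises transcription of those helpers, and hspa5 and hsp90b1 are its textbook targets. Antioxidant enzymes act in sequence: superoxide dismutases turn superoxide into hydrogen peroxide, and peroxiredoxins and glutathione enzymes reduce the peroxide to water. In the fish retina, unlike that of mammals, ganglion cells survive a nerve crush and regrow their axons.

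At day 4 the array signal of 4 of the 7 genes was higher in ONX than in SHAM eyes, by 3.07 to 4.17 times: the ER chaperones hspa5 and hsp90b1, the disulphide isomerase pdia4 and the peroxiredoxin prdx1. The mitochondrial superoxide dismutase sod2 was lower, at 0.631 of the SHAM level. The ER lectin chaperone calr and the cytosolic superoxide dismutase sod1 did not pass the test. Of all 9301 tested probe sets, 5.29% were called higher and 11.7% lower in ONX eyes at day 4. At days 12 and 21 no probe set of the 7 genes passed. The day 4 calls depended on single arrays, as given with each gene, and so did those of the whole array. They depended on the processing too. No member probe set was called with arrays scaled to spiked-in poly-A controls, with array weights, or with the replicate number as a block. The same held with the arrays of day 4 alone. In these settings the whole array had no calls either, except 10 with the arrays of day 4 alone.

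Properties of some arrays touch these results. ONX pool 1 of day 4 stood apart: its Spearman correlations with the other arrays were 0.717 to 0.81, against 0.851 to 0.973 among the other 11, and 28 of 29 oocyte marker genes on the array, all but cldng, were highest in it. The summed oocyte marker signal was 178000 and 10100 in the ONX pools of day 4, against 7370 and 11700 in the SHAM pools, although the fish were labelled male. The axon growth gene gap43, a check on the labels, was at 12.09 and 12.22 log2 units in ONX pools and 7.65 and 7.73 in SHAM pools at day 4. At day 12 gap43 was at 7.95 and 12.32 in ONX pools and 12.68 and 7.85 in SHAM pools, so that both pools numbered 1 went against their labels, and at day 21 it was at 7.93 and 9.38 in ONX pools against 10.15 and 9.18 in SHAM pools. Results are therefore given for the libraries as labelled, also without ONX pool 1 of day 4 and without the pools numbered 1 of days 12 and 21. The last setting leaves 1 pool in each group of days 12 and 21, so the spread comes from the arrays of day 4 alone. A day 4 call lost there cannot be put down to the pools left out rather than to the fewer arrays. With only the pools numbered 1 of day 12 left out, the day 4 calls of these genes stayed.

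Values below are log2(signal + 16) of the deposited array signals, and a difference is the mean of ONX pools minus that of SHAM pools, ± SE, with 2 pools in each group. A fold is on that same offset scale and understates changes of dim probe sets. The test was limma's moderated test over all 9301 probe sets, and a call is a Benjamini-Hochberg adjusted p under 0.05. Probe sets differ in how brightly they hybridise, so levels are compared between samples and not between genes. The number of arrays limits the precision.

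The chaperone hspa5, known as BiP, is the Hsp70 of the ER lumen; it holds unfolded chains and keeps the stress sensors inactive. At day 4 hspa5 (NCBI gene 378848) read 12.5 and 10.99 in ONX pools 1 and 2, against 9.65 and 9.98 in SHAM pools 1 and 2. Both ONX pools lay above the other 10 arrays of the study, which spanned 9.65 to 10.55, and ONX pool 1 lay 1.52 above ONX pool 2. The difference was 1.93 ± 0.44 (95% interval 0.94 to 2.92), a 3.81-fold higher signal with an adjusted p of 0.0230. Against the SHAM mean, ONX pool 1 was higher by 2.69 and ONX pool 2 by 1.17. Without ONX pool 1 it dropped to 1.17 (adjusted p of 0.0923), and without the pools numbered 1 of days 12 and 21 it stayed at 1.93 with an adjusted p of 0.0965.

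At day 12 hspa5 read 9.83 and 10.55 in ONX pools and 10.49 and 9.84 in SHAM pools. The higher pool of each group was the one with the higher gap43 value, as it was for pdia4 and both calr probe sets. For hsp90b1 and all prdx1 probe sets this held in ONX but not in SHAM pools, and for sod1 and sod2 in neither. Whether that bears on hspa5 was not tested. At day 21 hspa5 read 10.01 and 10.38 in ONX pools and 10.32 and 10.02 in SHAM pools. The groups overlapped on both days, with differences of 0.03 (95% interval -0.96 to 1.02) at day 12 and 0.03 at day 21. Without the pools numbered 1 of both days the differences were 0.71 at day 12 and 0.36 at day 21, each with an adjusted p of 1.

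The ER member of the Hsp90 family, hsp90b1 or GRP94, completes the folding of a set of secreted and membrane proteins that includes integrins and Toll-like receptors. The gene (NCBI gene 386590) read 11.13 and 9.83 in ONX pools 1 and 2 at day 4, against 8.54 and 8.89 in SHAM pools. The ONX pools were the highest of all arrays, but pool 2 only just, since ONX pool 2 of day 12 reached 9.82. The difference of 1.77 ± 0.48 (95% interval 0.69 to 2.84) was a 3.41-fold higher signal with an adjusted p of 0.0350. It was 1.12 with an adjusted p of 0.179 without ONX pool 1, and the adjusted p was 0.0945 without the pools numbered 1 of days 12 and 21.

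The ONX pools of hsp90b1 lay far apart at day 12, as at day 4, and close together at day 21. At day 12 it read 8.52 and 9.82 in ONX pools and 8.89 and 9.52 in SHAM pools, with both SHAM values inside the span of the ONX pools. At day 21 it read 9.21 and 9.28 in ONX pools and 9.29 and 8.67 in SHAM pools. The differences were -0.03 at day 12 and 0.27 at day 21. Without the pools numbered 1 of both days they were 0.30 and 0.61, and neither passed (adjusted p of 1 for each).

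The isomerase pdia4, also called ERp72, carries thioredoxin-like domains that make and reshuffle disulphide bonds. At day 4 pdia4 (NCBI gene 554998) read 11.5 and 9.87 in ONX pools, against 8.88 and 8.85 in SHAM pools. The ONX pools exceeded the other 10 arrays, which spanned 8.62 to 9.49, and the gap of 1.64 between the ONX pools was its widest within any group. The difference was 1.82 ± 0.44, a 3.53-fold higher signal (adjusted p of 0.0255), made up of 2.64 in ONX pool 1 and 1.00 in ONX pool 2. Without ONX pool 1 it was 1.00 with an adjusted p of 0.0858, and the adjusted p was 0.114 without the pools numbered 1 of days 12 and 21.

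At day 12 pdia4 read 8.90 and 9.49 in ONX pools and 9.20 and 8.62 in SHAM pools. At day 21 it read 9.22 and 9.36 in ONX pools and 9.39 and 9.21 in SHAM pools. The groups overlapped on both days, with differences of 0.28 and -0.01. Leaving out the pools numbered 1 of both days gave 0.87 at day 12, where ONX pool 2 lay above SHAM pool 2, and 0.15 at day 21, with an adjusted p of 1 for each.

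The other ER gene, calr (NCBI gene 325317), encodes calreticulin, a calcium-binding lectin that retains newly made glycoproteins until they have folded. Its brighter probe set read 8.85 and 9.54 in ONX pools at day 4, against 8.83 and 9.15 in SHAM pools. The groups overlapped, and here pool 2 was the higher ONX pool, the opposite order to hspa5, hsp90b1 and pdia4. The difference was 0.21 ± 0.26 (95% interval -0.36 to 0.78) with an adjusted p of 0.585. A rise of up to 0.78 log2 units lies inside that interval and was not detectable with these pools. Leaving out ONX pool 1 gave 0.55 (adjusted p of 0.164).

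The second calr probe set read 8.38 and 8.46 in ONX pools against 8.01 and 8.44 in SHAM pools at day 4, a difference of 0.20 ± 0.34 with an adjusted p of 0.698. At day 12 it read 8.08 and 8.92 in ONX pools and 8.56 and 7.84 in SHAM pools, and at day 21 it read 8.22 and 7.77 against 8.20 and 7.92. The groups overlapped on all 3 days. Without the pools numbered 1 of days 12 and 21 its difference was 1.09 at day 12, against 0.30 with all pools, and -0.15 at day 21, with an adjusted p of 1 for each; without those of day 12 alone the adjusted p of the 1.09 was 0.753. The brighter probe set read 8.67 and 8.93 in ONX pools against 8.98 and 8.67 in SHAM pools at day 12. At day 21 it read 8.88 and 8.69 in ONX pools, below the 9.15 and 8.96 in SHAM pools, with a difference of -0.27 that did not pass (adjusted p of 1). Its differences without the pools numbered 1 were 0.26 at day 12 and -0.27 at day 21, and neither passed.

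Peroxiredoxin 1, encoded by prdx1 (NCBI gene 541344), is an abundant thiol peroxidase that reduces hydrogen peroxide and is recharged by thioredoxin. Its brightest probe set read 10.15 and 9.54 in ONX pools at day 4, against 7.63 and 8.14 in SHAM pools. The second read 9.78 and 8.76 in ONX pools against 7.11 and 8.20 in SHAM pools. The third read 9.84 and 9.43 in ONX pools against 7.31 and 7.84 in SHAM pools. On each probe set the ONX pools lay above the other 10 arrays, and ONX pool 1 was the higher of the pair. The differences were 1.96 ± 0.34, 1.62 ± 0.40 and 2.06 ± 0.42, or 3.88, 3.07 and 4.17 times the SHAM signal, with adjusted p of 0.0176, 0.0260 and 0.0176. They were 1.65, 1.11 and 1.86 without ONX pool 1, with adjusted p of 0.0739, 0.121 and 0.0809. Without the pools numbered 1 of days 12 and 21 the adjusted p were 0.0718, 0.129 and 0.0712. All 3 probe sets report on the same RNA and are not separate evidence.

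At day 12 the brightest prdx1 probe set read 8.04 and 8.95 in ONX pools and 7.99 and 8.59 in SHAM pools, and at day 21 it read 8.54 and 8.42 against 8.53 and 8.60. The second read 8.08 and 8.45 in ONX pools against 7.59 and 7.99 in SHAM pools at day 12, and 8.37 and 8.14 against 7.83 and 7.85 at day 21. The third read 7.51 and 8.46 in ONX pools against 7.14 and 8.37 in SHAM pools at day 12, and 8.27 and 7.95 against 7.86 and 7.75 at day 21. The ONX pools thus lay above the SHAM pools on the second probe set on both days and on the third at day 21, while the brightest overlapped on both. The differences ran from 0.20 to 0.48 at day 12 and from -0.08 to 0.41 at day 21, and none passed (adjusted p of 1 for each). With the pools numbered 1 of both days left out they ran from 0.09 to 0.47 at day 12 and from -0.17 to 0.29 at day 21, and again none passed.

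Neither superoxide dismutase was called higher at day 4. The cytosolic copper and zinc enzyme sod1 (NCBI gene 30553) read 11.61 and 11.31 in ONX pools at day 4 and 11.61 and 11.73 in SHAM pools. The groups overlapped, and the difference was -0.21 ± 0.19 (95% interval -0.63 to 0.21; adjusted p of 0.445), with a sign that turned when arrays were scaled to spiked-in controls (0.26 with hybridisation controls, 0.16 with poly-A controls). At day 12 sod1 read 11.53 and 11.37 in ONX pools and 11.20 and 11.58 in SHAM pools, and at day 21 it read 11.68 and 11.60 against 11.48 and 11.52. Its differences of 0.06 and 0.14 on those days were -0.22 and 0.08 without the pools numbered 1, and none passed. Its largest gap between the pools of a group was 0.38, against 1.52 for hspa5.

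The manganese enzyme of mitochondria, sod2 (NCBI gene 335799), read 10.60 and 10.56 in ONX pools at day 4, against 11.29 and 11.21 in SHAM pools. The ONX pools lay below the other 10 arrays, which spanned 10.89 to 11.37, and the 2 ONX pools were nearly equal. The difference was -0.66 ± 0.18 (95% interval -1.07 to -0.26) with an adjusted p of 0.0353. Without ONX pool 1 it was -0.68 with an adjusted p of 0.0856, and the adjusted p was 0.142 without the pools numbered 1 of days 12 and 21. Scaling to the hybridisation controls moved all day 4 differences by 0.47 and left sod2 at -0.19 (adjusted p of 0.378), and scaling to poly-A controls left it at -0.30 (adjusted p of 0.616). At day 12 it read 11.13 and 10.95 in ONX pools and 10.89 and 11.26 in SHAM pools, and at day 21 it read 11.37 and 11.25 against 11.19 and 11.35, overlapping on both days. Its differences there, -0.03 and 0.04, were -0.31 and -0.10 without the pools numbered 1, and none passed.

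**Figure D1:**
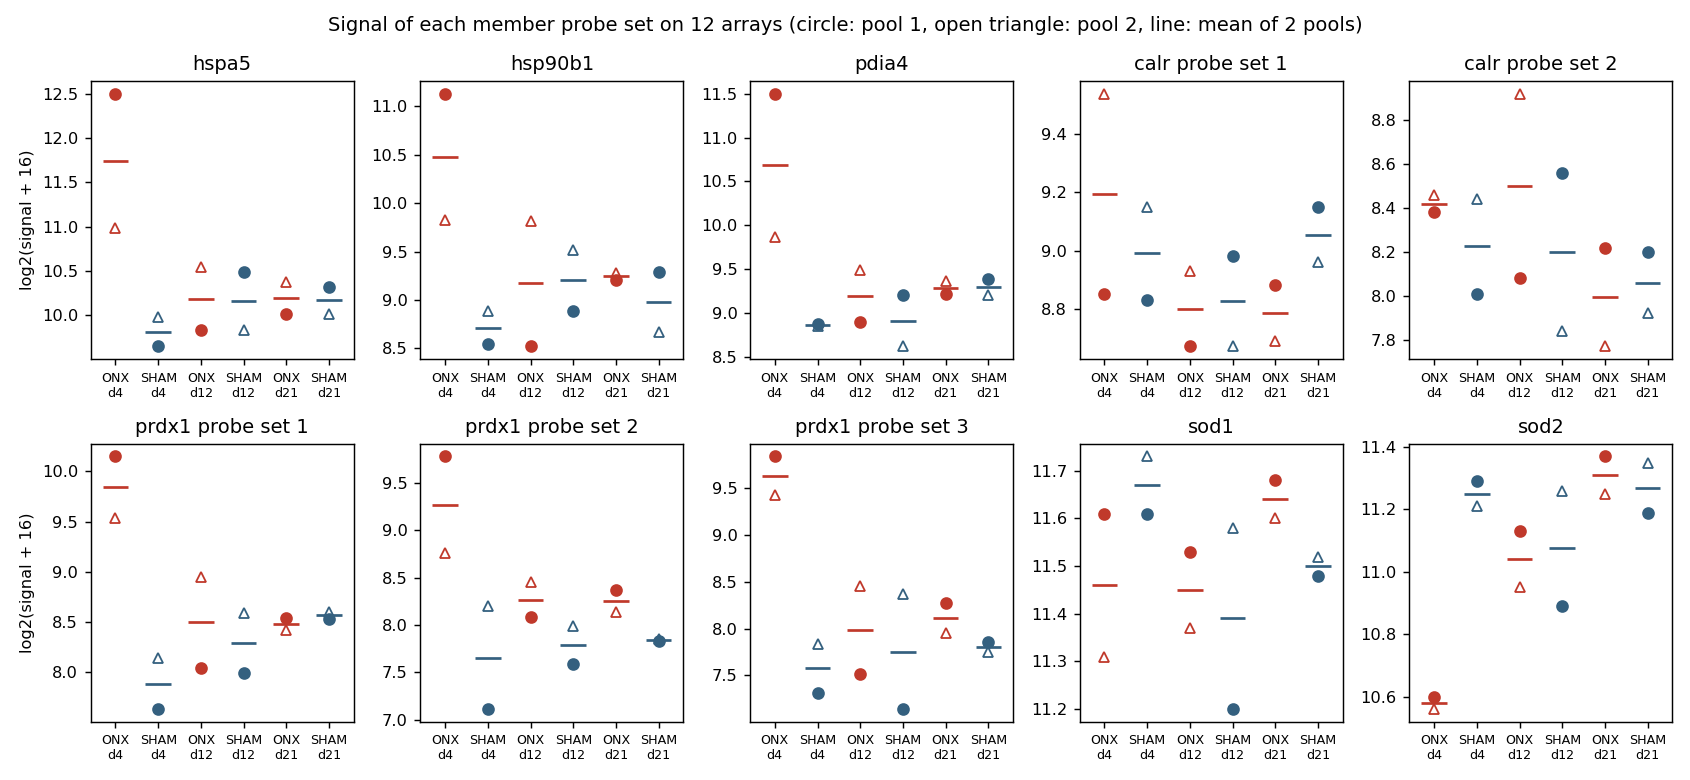
Array signal of the 10 probe sets, log2(signal + 16), in every pool at days 4, 12 and 21, with ONX pools left of SHAM pools, circles for pool 1, triangles for pool 2 and lines for group means; probe set 1 is the brightest of its gene. Each panel has its own axis, which does not start at 0. The ONX pools of day 4 lie above all other arrays for hspa5, hsp90b1, pdia4 and the 3 prdx1 probe sets, and below them for sod2. The share of all probe sets that do so was not counted.

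Of the 10 probe sets 6 were called higher and 1 lower in ONX eyes at day 4. Over all 9301 probe sets, 5.29% were called higher and 11.7% lower. The 7 genes were chosen with earlier results of these data known, so setting these shares side by side is not a test. The calls of the members were lost without ONX pool 1, without SHAM pool 1 or without SHAM pool 2 of day 4. The calls of all other probe sets were lost in these settings too, so the loss was not particular to the members. The member calls stayed without ONX pool 2 of day 4, and part of them stayed without any 1 array of day 21. Leaving out ONX pool 2 keeps the pool with the oocyte transcripts as the only ONX array of day 4. Calls across the whole array became more numerous in that setting, so it is no support for the members. Both ONX pools lay above both SHAM pools for the same 6 member probe sets, against 24.1% of all probe sets, and below them for sod2, against 36.1%. How many of all probe sets had both ONX pools beyond the other 10 arrays was not counted. A larger rise at day 4 was seen in 0.839% to 2% of tested probe sets for these 6. A larger fall than that of sod2 was seen in 20.5%. At days 12 and 21 limma called 0 of 9301 probe sets at the adjusted threshold (0% each). Of the 9301, 27 had an unadjusted p under 0.05 at day 12 and 12 at day 21. Both counts are far below what that threshold passes when nothing differs, so the tests of these days were conservative. A missing call there does not show a missing difference. At day 12 that unadjusted count was 601 without the day 12 pools numbered 1 (smallest adjusted p of 0.164) and 300 without those of days 12 and 21 (0.0794), with 0 called in either case; at day 21 it was 20 without those of both days. Both ONX pools lay above both SHAM pools for 1 member probe set at day 12, where all probe sets gave 7.29% above and 7.48% below. At day 21 they did so for 3, the second prdx1 probe set, the third prdx1 probe set and that of sod1, and lay below for the brighter calr probe set, where all probe sets gave 12.1% above and 11.6% below.

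Whether the ONX effect differed between the days was tested directly with limma's F-test of the 3 differences, and it called 0% of probe sets at the adjusted threshold. Its unadjusted p was under 0.05 for 14.1% of all probe sets (1308) and for 5 of the 10 member probe sets. The smallest was 0.00346 for the brightest prdx1 probe set, followed by 0.0180 for hspa5 and for the third prdx1 probe set, 0.0304 for pdia4 and 0.0397 for sod2. hsp90b1 had 0.0523, and the second prdx1 probe set 0.0990. The adjusted p of the 10 probe sets started at 0.261, so a difference between day 4 and the later days was not established for any of the 7 genes. SHAM eyes of the 3 days were compared in the same way, since a moving control would shift the differences. That test called 0% of probe sets, 172 at an unadjusted p under 0.05, and the smallest unadjusted p among the members was 0.187. The count of 172 is also below what that threshold passes when nothing differs, so this test was conservative as well. It does not show that the SHAM eyes were the same on the 3 days.

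**Figure D2:**
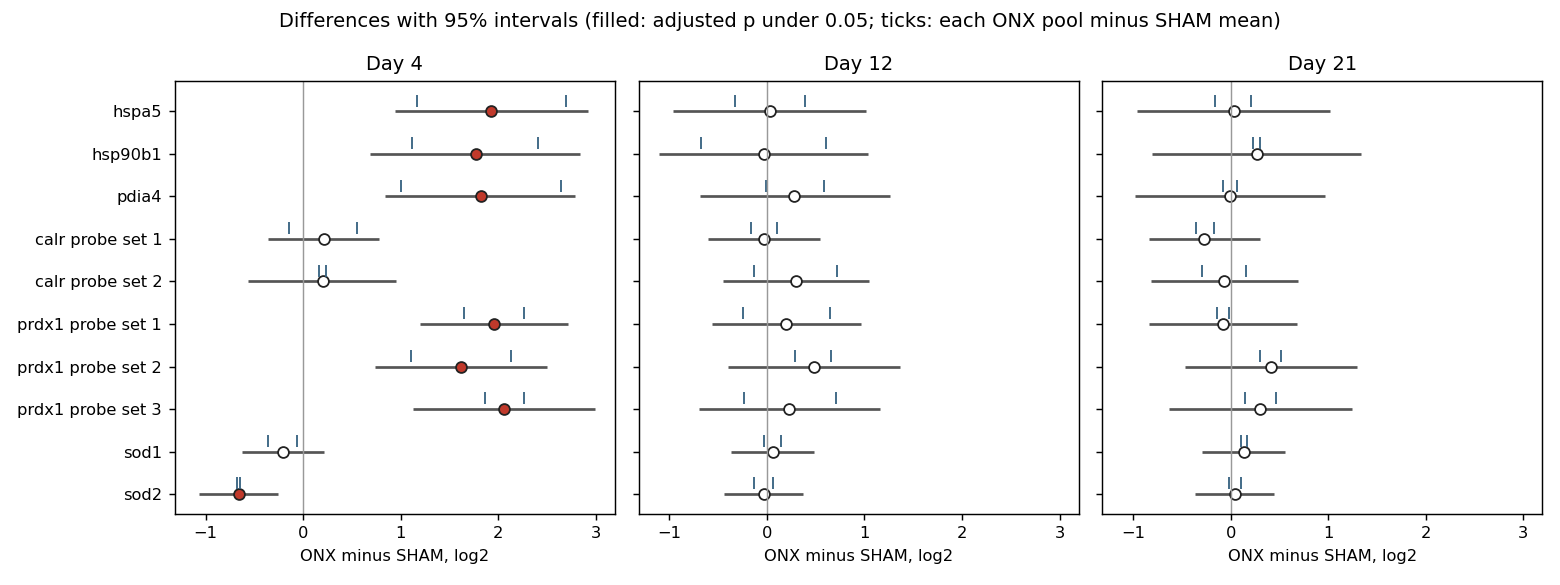
Difference of ONX minus SHAM, in log2 units, with its 95% interval for the 10 probe sets at days 4, 12 and 21. Intervals lie clear of 0 at day 4 for hspa5, hsp90b1, pdia4, prdx1 and sod2, and cross 0 for every probe set at days 12 and 21.

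Genes of the same processes were counted in 7 lists, with 1 probe set a gene. The lists were chosen with earlier results of these data known, so their shares beside those of all genes are not a test. The ER chaperone list holds hspa5, hsp90b1, pdia4 and calr, the peroxide list holds prdx1, sod1 and sod2, and serpinh1b, an ER-resident collagen chaperone, is on both the ER chaperone and the cytosolic heat shock list. Across the 5967 genes with 1 symbol, 6.67% rose and 9.57% fell at day 4, with a median difference of 0.03. Of 26 tested ER chaperones and disulphide isomerases 11 rose and 0 fell, and 25 had a positive difference, with a median of 0.86. The 11 include hspa5, hsp90b1 and pdia4. The median was 0.91 in ONX pool 1 and 0.86 in ONX pool 2, and under other scalings it ran from 0.70 to 1.33. The riser with the largest difference was manf, a secreted ER stress protein (2.01 ± 0.45). Also called were hyou1, an ER relative of Hsp70 that releases nucleotide from BiP (1.47 ± 0.37), and pdia6, another disulphide isomerase (1.30 ± 0.31). The calreticulin relatives calr3b (1.84 ± 0.46) and calr3a (1.25 ± 0.31) rose, whereas calr did not pass. Calnexin, canx, the membrane-bound partner of calreticulin, had a difference of -0.13 ± 0.24, the lowest of the list. It was singled out after its value was seen.

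Of 23 genes of ER translocation and glycosylation, which bring proteins into the ER and attach sugars, 10 rose and 0 fell, with a median of 0.51. They included tram1 of the translocation channel (1.60 ± 0.29) and 4 subunits of the translocon-associated complex, ssr3 (1.26 ± 0.24), ssr4 (1.15 ± 0.25), ssr2 (1.11 ± 0.28) and ssr1 (0.91 ± 0.19). The oligosaccharide transferase subunits rpn2 (0.95 ± 0.24) and dad1 (0.76 ± 0.21) and the signal peptidase subunit spcs3 (0.97 ± 0.28) also rose. Both ONX pools lay above both SHAM pools for 69.6% of these genes and for 65.4% of the ER chaperones. Among all 9301 probe sets, where a gene can have several, the share was 24.1%. In the other lists it ran from 21.2% for cytosolic heat shock proteins to 42.9% for mitochondrial chaperones and 45.8% for the unfolded protein response list.

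Of 24 genes of the unfolded protein response and of ER-associated degradation 1 rose, eif2s1a, which encodes the translation factor subunit that stress kinases phosphorylate (0.90 ± 0.20), and 0 fell, with a median of 0.37. That share of 4.17% is near the 6.67% of all genes that rose. A positive difference was seen for 18 of the 24. Both ONX pools lay above both SHAM pools for 11 (45.8%) and below them for 2 (8.33%), against 24.1% and 36.1% of all probe sets. The transcription factor xbp1 had a difference of 0.95 ± 0.30 with an adjusted p of 0.0513, just short of the threshold. The stress-translated factors atf4a and atf4b stood at -0.41 and -0.08, and neither passed. These 3 were named for their roles after their values were seen. The factors are also controlled by splicing of their RNA or by translation, which the array signal does not read.

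Among 22 genes of peroxide and superoxide removal 4 rose and 1 fell, sod2, with a median of -0.11. Beside prdx1, the risers were the glutaredoxin gene glrx (1.49 ± 0.42), the glutathione reductase gene gsr (0.94 ± 0.28) and prdx4, the peroxiredoxin of the ER (0.83 ± 0.24). Of 21 genes of the Nrf2 pathway and glutathione 3 rose and 0 fell, with a median of 0.13. They were the glutathione transferases gsto2 (2.06 ± 0.40) and gstt1b (1.12 ± 0.34) and idh1, the cytosolic isocitrate dehydrogenase that supplies NADPH (1.56 ± 0.39). Both medians changed sign between scalings, from -0.27 to 0.36 for the first list and from -0.03 to 0.61 for the second.

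The shares of risers among chaperones of other compartments were near the 6.67% of all genes. Of 33 genes on the cytosolic heat shock list 1 rose (3.03%), hspa14 (0.85 ± 0.25), and 3 fell, hspa4l (-1.50 ± 0.30), dnajb6a (-0.87 ± 0.25) and hsp90aa1.2 (-0.83 ± 0.24). Their median of 0.11 ran from -0.06 to 0.58 under other scalings, and with the hybridisation controls 5 rose and 1 fell. Of 14 mitochondrial chaperones 1 rose (7.14%), hspd1, the Hsp60 of mitochondria (1.16 ± 0.19), with a median of -0.03 that ran from -0.19 to 0.44. At days 12 and 21 none of the 7 lists had a called gene, with medians from -0.08 to 0.10 at day 12 and from -0.07 to 0.03 at day 21. Without ONX pool 1, SHAM pool 1 or SHAM pool 2 of day 4 no gene of the 7 lists was called at day 4, and no other probe set was either. Without ONX pool 1 the median of the ER chaperones stayed at 0.86 and that of the translocation genes at 0.54.

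**Figure D3:**
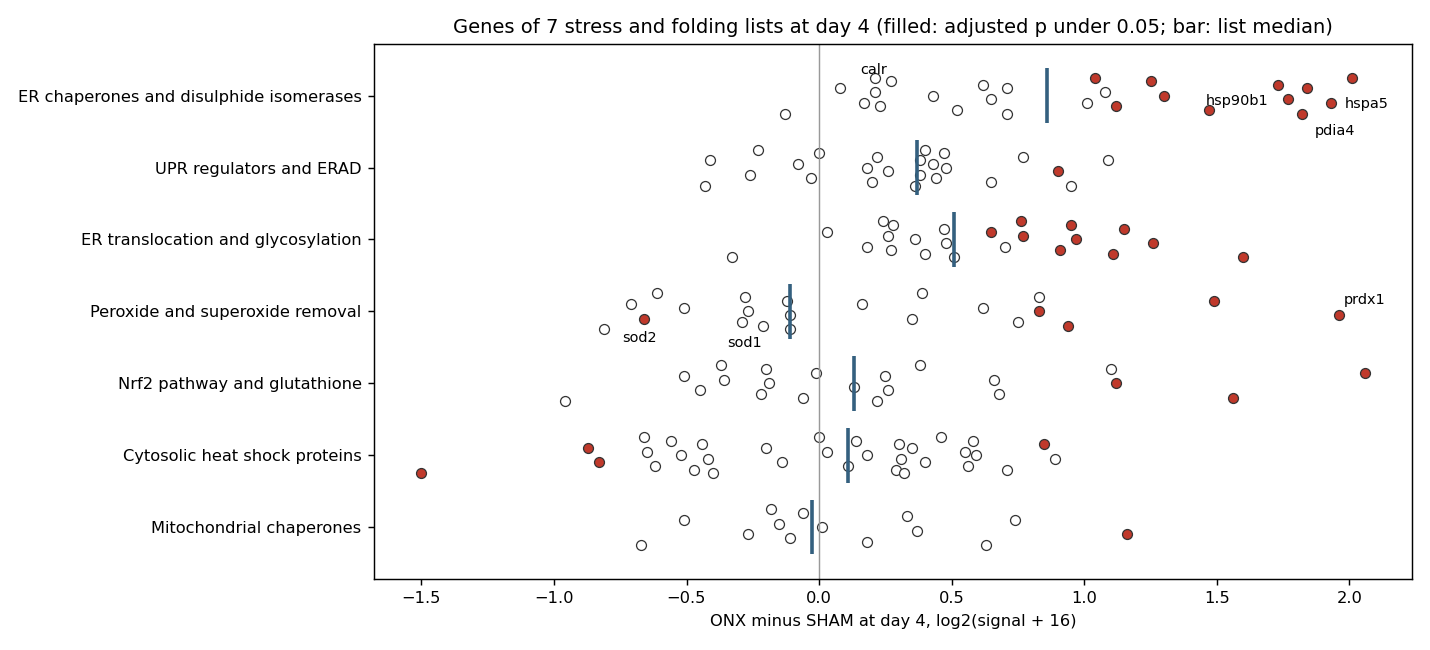
Difference of ONX minus SHAM at day 4, in log2 units, for each tested gene of 7 lists, 1 point a gene, filled where the adjusted p was under 0.05, with bars at the list medians. The 11 called ER chaperones and 10 called translocation genes all lie right of 0, and sod2 is the called gene left of 0 among those of peroxide and superoxide removal.

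The differences were not equal in the 2 ONX pools. Of the 11 called ER chaperones 9 were higher in ONX pool 1 than in ONX pool 2, and in ONX pool 2 alone the 11 stood 0.84 to 2.12 above the SHAM mean. Markers of other cells moved with the day 4 contrast. The 21 microglia and macrophage markers on the array summed to 64500 and 88900 in ONX pools, against 40100 and 44000 in SHAM pools. Their median log2 value was 9.84 and 11.38 against 8.68 and 9.03. In ONX pool 1 the sum leaned on ctss2.1, at 13.75 there, 10.80 in ONX pool 2 and 7.88 and 8.52 in SHAM pools. The bright markers cd74a and cd74b were below both SHAM pools in both ONX pools, and ptprc was so in ONX pool 1. The 10 rod markers summed to 58900 and 68200 in ONX pools, against 136000 and 137000 in SHAM pools. The 15 cone markers summed to 149000 and 176000 in ONX pools, against 318000 and 319000 in SHAM pools. The 8 lens markers summed to 47600 and 68100 in ONX pools against 96200 and 110000 in SHAM pools, and the 10 red blood cell markers to 11400 and 13300 against 21000 and 28700. The 16 Mueller glia markers summed to 42000 and 74100 in ONX pools, against 67700 and 69500 in SHAM pools. For the 20 skeletal muscle markers the sums were 16800 and 46000 against 43200 and 41000. For the 20 skin and corneal markers they were 103000 and 146000 against 134000 and 127000. In ONX pool 1 alone these sums were below both SHAM pools. A few bright genes can carry a sum, and the medians of log2 values differed. The skin and corneal median was above both SHAM pools in both ONX pools (11.67 and 12.03 against 11.18 and 11.08). The Mueller glia median was below both SHAM pools in both ONX pools (10.84 and 11.28 against 11.32 and 11.41). The 10 ganglion cell markers summed to 14100 and 8370 in ONX pools against 14100 and 14300 in SHAM pools. Their median log2 value was 8.97 and 8.30 in ONX pools against 9.30 and 9.17 in SHAM pools. The marker thy1 read 13.08 and 11.15 in ONX pools 1 and 2, above the 10.43 and 10.40 in SHAM pools. For eomesa the values were 9.82 and 6.35 against 7.01 and 6.63, above both SHAM pools in ONX pool 1 alone. The other markers of the list were below both SHAM pools in both ONX pools. The median of the oocyte markers was high in ONX pool 1 alone, at 12.32 there and 4.77 to 5.84 on the other arrays. The 5.84 was that of SHAM pool 2 of day 4. In that pool zp2.6 (7.63), zp3.1 (7.56) and zp3a.1 (7.01) were higher than on every array except ONX pool 1 of day 4. No marker of these 10 lists was at a signal of 0 on any array. Their part in the values of the 7 genes was not tested.

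**Figure D4:**
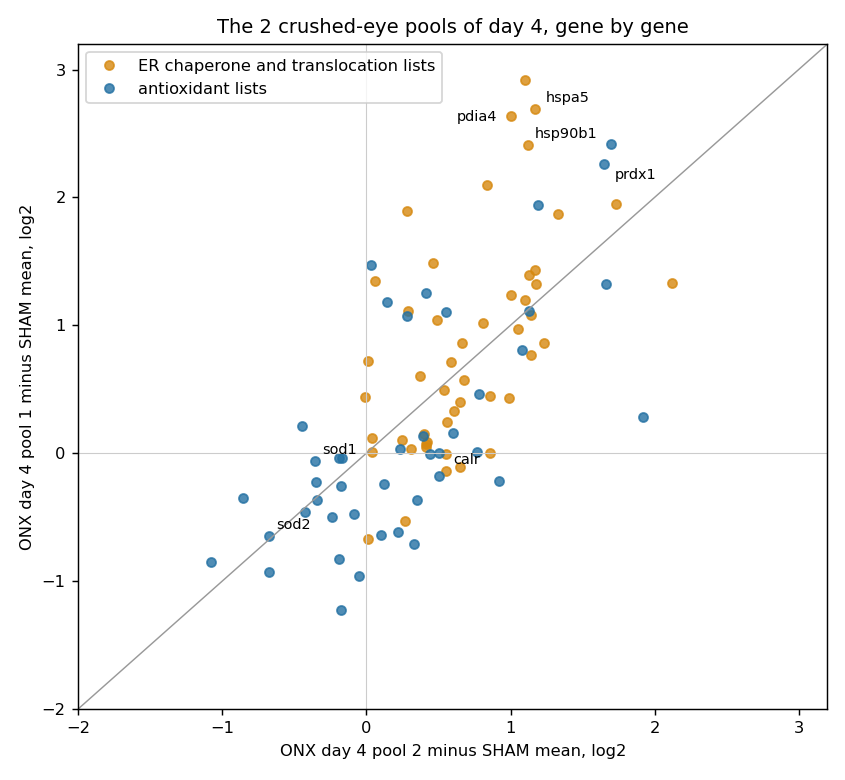
Difference from the SHAM mean at day 4, in log2 units, of ONX pool 1 (vertical axis) and ONX pool 2 (horizontal axis), 1 point a gene, for the lists of ER chaperones and translocation and for those of peroxide removal and glutathione. The diagonal marks equal differences, and the 7 described genes are labelled. hspa5, hsp90b1, pdia4 and prdx1 are above 0 in both pools and larger in pool 1, and sod2 is below 0 in both.

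Genes with a pattern like that of a member were ranked by the root mean square difference of log2 values, each gene centred on its own mean, over the 12 arrays and again over the 11 without ONX pool 1 of day 4. For hspa5 the nearest of 5966 genes over 12 arrays were serp1 (0.15), pdia4 (0.16), lmnb1 (0.17), ddx39ab (0.17) and nutf2l (0.19), where the median gene differed by 0.78. Over 11 arrays they were stat3 (0.09), ssr3, sdcbp2 and rac1a (0.10 each) and ssr4 (0.11), against a median of 0.43, so the neighbours changed with that array. For prdx1 the nearest over 12 arrays were phf5a and cnn3b (0.24 each) and dkc1, tradd and pcna (0.26 each). Over 11 arrays they were cnn2 (0.19), snrpf (0.19), crtap (0.20), selenom (0.20) and pmelb (0.22). For sod2 they were atpaf1, trim13, pde6ha, ldhba and snx27b over 12 arrays (0.08 to 0.09), and gnb3b, slmapb, opn1lw1, nfia and atpaf1 over 11 (0.07 to 0.08). Of these, pde6ha, gnb3b and opn1lw1 encode proteins of cone phototransduction and are on the cone marker list. Among the members, hspa5 and pdia4 differed by 0.16 over 12 arrays and 0.17 over 11, and sod1 and sod2 by 0.22 and 0.14. These 2 pairs cannot be set side by side, because sod2 varied little. Its standard deviation over 12 arrays was 0.28, against 0.77 for hspa5. The median gene differed from sod2 by 0.37 over 12 arrays.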

How the data were processed

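Total RNA of 12 pools of 5 eyes was labelled and hybridised to 1-colour Affymetrix arrays, per the labels' protocols. The deposited values are linear array intensities that the authors computed with MAS5, per the submitters' processing notes, with version and scaling not given in the sources used here; each array has a mean of 500.1 after trimming 2% at each end. No background correction or further normalization was added. Probe sets were named from the platform annotation given, of which 10795 had 1 symbol, 135 several and 4572 none; 10711 of those with 1 symbol matched RefSeq by gene ID. Signals were turned to log2(signal + 16), and the upper 60% of 15502 non-control probe sets by mean over all arrays was tested (9301).

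limma 3.58.1 in R 4.3.3 fitted 1 mean per treatment and day over all 12 arrays, with eBayes and an intensity trend, and Benjamini-Hochberg adjustment over all 9301 probe sets. Folds are on the log2(signal + 16) scale. Groups came from the sample titles. The pools are labelled biological replicates; how eyes were assigned to numbered pools is not stated, and p-values measure the spread between pools. The fit was tested on simulated data with independent noise. The simulation held no outlying array and no exchanged pools, so it cannot show how the fit handles those. Alternatives covered offset, filter, scaling, moderation, array weights, a replicate block, the arrays of 1 day only and leaving out arrays.

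The 7 genes, the 7 lists and the marker lists were chosen with earlier results of these data known. Named are all probe sets of the 7 genes and up to 8 called genes a list by adjusted p. The 5 genes nearest in pattern to hspa5, prdx1 and sod2 are also named. Other genes of these lists, and the single cell type markers that are named, were picked after their values were seen. A list uses the probe set of highest mean signal for each gene.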

Additional observations from a re-analysis of the deposited data

How the results depend on the processing

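Over all alternatives, 748 differences of the member probe sets kept their direction and side of the threshold. Another 67 kept direction but were no longer called, and 46 turned direction. Settings of filter, moderation and threshold cannot change a difference, nor can leaving out an array of another day. The count of 748 is therefore no measure of stability. No setting called any probe set at day 12 or 21, so that side of the threshold says nothing particular to the members. At days 12 and 21, 0 of 574 alternative values passed, with a smallest adjusted p of 0.753. The count of probe sets called at day 4, 1582 (492 higher and 1090 lower), was 2429 (1990 higher and 439 lower) with arrays scaled to hybridisation controls, 2813 at an adjusted p of 0.1, 10 with the arrays of the day only or without the pools numbered 1 of days 12 and 21, and 0 with poly-A scaling or array weights. With the replicate number as a block (replicate block) it was 0, with 3180 at an unadjusted p under 0.05 and a smallest adjusted p of 0.0545. Whether same-numbered ONX and SHAM pools hold eyes of the same fish is not stated. The correlations of their deviations were 0.12, -0.12 and -0.03 at days 4, 12 and 21. They were not over 0.1 on every day, so the unpaired fit was kept. These correlations cannot decide on pairing, since gap43 went against the labels of the day 12 pools numbered 1. In addition, ONX pool 1 of day 4 carried oocyte transcripts. A crossed block at day 12, added after the data were seen, gave 1677 calls at day 4. Leaving out 1 pool gave 0 to 4008. Of the member probe sets, 7 were called; 0 were called under poly-A scaling, array weights, the replicate block, the arrays of the day only or without the pools numbered 1 of days 12 and 21, and 0 to 7 with 1 pool left out (0 without ONX pool 1 or either SHAM pool of day 4). Over alternatives the day 4 adjusted p of hspa5 ran from 0.0017 to 0.155, of hsp90b1 from 0.00623 to 0.191, of pdia4 from 0.000914 to 0.149, of the brightest prdx1 probe set from 0.00349 to 0.139 and of sod2 from 0.0251 to 0.616. The count of effects differing between days was 0, and 0 to 1419 with 1 pool left out (1419 without ONX pool 2 of day 4); that of SHAM eyes between days was 0, but 7 with array weights and 3 at an adjusted p of 0.1. ER chaperones called at day 4 numbered 11, 19 with hybridisation controls, 7 with no filter, and 0 with poly-A scaling or without ONX pool 1 or either SHAM pool of day 4.

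Direction turned at day 4 for sod1 with hybridisation controls (0.26) and poly-A controls (0.16). With hybridisation controls it turned at day 12 for hspa5 (-0.06) and sod1 (-0.03) and at day 21 for pdia4 (0.02). With poly-A controls it turned for hspa5 at day 12 (-0.03) and at day 21 for pdia4 (0.10), the second calr probe set (0.04) and the brightest prdx1 probe set (0.02). Without the pools numbered 1 it turned at day 12 for hsp90b1 (0.30), the brighter calr probe set (0.26) and sod1 (-0.22) and at day 21 for pdia4 (0.15) and sod2 (-0.10). With 1 pool left out, the ranges that crossed 0 were, at day 4, -0.14 to 0.55 and -0.02 to 0.41 for the brighter and second calr probe sets. At day 12 they were -0.33 to 0.39 for hspa5, -0.68 to 0.61 for hsp90b1, -0.01 to 0.58 for pdia4, -0.18 to 0.13 and -0.13 to 0.72 for calr, -0.25 to 0.65 for the brightest prdx1 probe set, -0.38 to 0.85 for the third prdx1 probe set, -0.14 to 0.25 for sod1 and -0.22 to 0.15 for sod2. At day 21 they were -0.16 to 0.21 for hspa5, -0.04 to 0.58 for hsp90b1, -0.10 to 0.08 for pdia4, -0.29 to 0.16 for the second calr probe set and -0.04 to 0.12 for sod2. The cause was not tested.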
